A study of Homo sapiens with 6 samples.

Results

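The J-domain cochaperones are the genes whose official symbol begins with DNAJA, DNAJB or DNAJC followed by a number. Among the 25420 genes in the deposited tables, 51 have a symbol that begins in this way, and 44 were kept: 4 DNAJA, 12 DNAJB and 28 DNAJC genes. A transcribed pseudogene (DNAJB3), a readthrough gene (DNAJC25-GNG10) and 5 non-coding RNAs were left out. MOLM-13, an established human acute myeloid leukaemia line, was given C646, an inhibitor that competes with acetyl-CoA for the histone acetyltransferases CBP and p300, at 10 µM for 2 h. The control cells received DMSO, the solvent, for the same time, and each group has 3 replicates. Both groups were given 100 µM 4-thiouridine (4sU) during the last 1 h, so that the control group is labelled but not inhibited. After alkylation, 4sU in new RNA is copied as if it were C, and a read with such a conversion (a T > C read) marks a newly synthesized transcript. The design holds a single cell line, dose and time, and neither the labels nor the methods state that the replicates are separate cultures, so that p-values measure the spread between these libraries, which may be technical.

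A J domain binds HSP70 and speeds up its ATP hydrolysis, which closes HSP70 on an unfolded protein that the cochaperone has often delivered. DNAJA proteins carry the zinc-binding and client-binding regions of bacterial DnaJ, DNAJB proteins lack the zinc-binding region, and DNAJC proteins share little beyond the J domain and place HSP70 at particular sites such as the endoplasmic reticulum, the mitochondrial import motor, the ribosome or vesicles. Several DNAJA and DNAJB genes are classical heat shock genes, which the factor HSF1 activates when unfolded proteins accumulate.

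Between 7252597 and 10225448 reads per library fell on annotated 3′ UTRs, of which 477824 to 833410 were T > C reads. The T > C reads made up 8.79% ± 0.0637 of the DMSO reads and 6.48% ± 0.203 of the C646 reads (SD, n = 3 each). The share of all filtered reads that fell on 3′ UTRs also moved with the group, from between 49.7% and 51.6% in DMSO to between 56.3% and 62.0% in C646, and its part in the results was not tested. Levels are given as CPM, the reads of a gene per 1000000 reads, scaled by all reads on 3′ UTRs with TMM factors, so that T > C levels set new transcripts against total mRNA. All 9 myeloid markers examined were at 5 CPM or more, whereas none of 5 T and B cell markers and none of 5 red cell markers were. Of 6 markers of epithelium and stroma, PECAM1 alone reached that level, with a list sum of 146 to 156 CPM in DMSO and 94.9 to 133 CPM in C646, and its part in the results was not tested. CREBBP and EP300, which encode CBP and p300, were not called in T > C reads (log2 fold changes of -0.12 and -0.79, adjusted p = 0.706 and 0.00122 from edgeR's quasi-likelihood test). Genes were called where the adjusted p did not exceed 0.01 and the log2 fold change reached 1 in either direction.

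Newly synthesized transcripts of 6 J-domain genes were more abundant in C646, those of 3 genes were less abundant, and 19 further tested genes met neither call. The 6 were DNAJB1, DNAJA4, DNAJB4, DNAJA1, DNAJB6 and DNAJC7, with log2 fold changes from 1.47 to 5.77. The 3 were DNAJC2, DNAJC11 and DNAJC9, with log2 fold changes from -1.68 to -1.40. Of the 28 members tested, 21.4% were thus higher and 10.7% lower, whereas 2.97% of all 7722 tested genes were higher and 33% were lower. The median log2 fold change of the tested members was -0.63, beside -0.83 for all tested genes.

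The members together held between 0.230% and 0.255% of all T > C reads in DMSO and between 3.04% and 3.10% in C646. DNAJB1 alone supplied 77.1% ± 0.278 (SD, n = 3) of the members' T > C reads in C646, up from 13.2% ± 2.02 (SD, n = 3) in DMSO. Without DNAJB1, the other 43 genes held a mean of 0.214% ± 0.0160 of the DMSO T > C reads and 0.702% ± 0.00785 of those in C646 (SD, n = 3 each). The members' share of all reads was 0.184% ± 0.00573 in DMSO and 0.791% ± 0.0544 in C646 (SD, n = 3 each). In bulk samples such as these, a change in the number of expressing cells and a change per cell cannot be told apart.

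**Figure D1:**
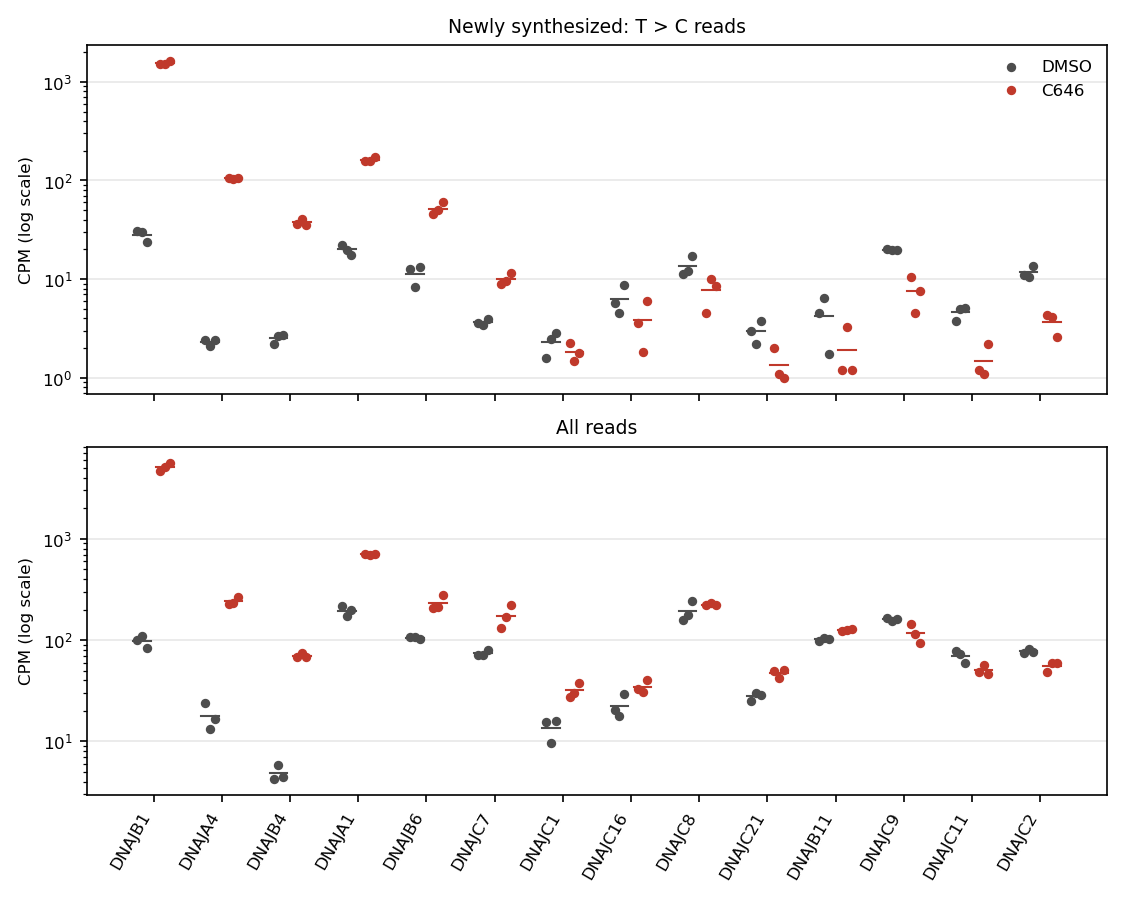
Levels of the 14 J-domain genes called in T > C reads, all reads or the T > C share, in CPM on log scales, for each DMSO and C646 library (points) with the group mean (line); the genes are ordered by their T > C log2 fold change. DNAJB1 stands highest in both panels in C646, at 1504 to 1614 CPM in T > C reads against 24.0 to 30.6 in DMSO.

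The class A and B proteins of the cytosol and nucleus, which bind unfolded clients directly, held 5 of the 6 genes called higher. Of the 10 members in this group, 6 were tested in T > C reads, and 83.3% of these were higher, beside 2.97% of all tested genes. The groups were drawn up with earlier results of these data known. DNAJB1, or HSP40, the main partner of the stress-inducible HSP70 and a client-binding cofactor of its disaggregase activity, lies on chromosome 19 (Entrez 3337, 3′ UTR at chr19:14514764-14515939 in GRCh38, the build of all positions given). Its T > C level was 30.6, 30.1 and 24.0 CPM in DMSO and 1515, 1504 and 1614 CPM in C646. The groups were far apart, with a log2 fold change that reached 5.77 (standard error 0.14, adjusted p = 1.73e-24), rank 16 of the 7722 tested genes. In all reads, DNAJB1 stood at 99.2, 110 and 83.1 CPM in DMSO and at 4657, 5070 and 5649 CPM in C646 (log2 fold change 5.72, standard error 0.17, adjusted p = 1.33e-11). The lowest C646 library thus held more new DNAJB1 mRNA than any DMSO library held of DNAJB1 mRNA in total. New and total reads of DNAJB1 rose by nearly the same factor, and its T > C share was 29.0% ± 1.70 in DMSO and 30.2% ± 2.05 in C646 (SD, n = 3 each) (adjusted p = 0.517 in the edgeR test of the share).

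DNAJA4, a class A cochaperone of the cytosol (Entrez 55466, chr15:78280461-78282196), was expressed at a low level in DMSO. In T > C reads, DNAJA4 stood at 2.42, 2.08 and 2.42 CPM in DMSO and 106, 103 and 107 CPM in C646, without overlap (log2 fold change 5.50, standard error 0.21, adjusted p = 1.39e-19). All reads of DNAJA4 rose less, from 24.0, 13.3 and 16.7 CPM to 225, 235 and 268 CPM (log2 fold change 3.74, standard error 0.20, adjusted p = 8.31e-09). The T > C share of DNAJA4 accordingly went from 13.4% ± 2.93 (SD, n = 3) to 43.6% ± 3.67 (SD, n = 3), the largest gain in share among the tested members (log2 fold change 2.39 on the odds of a T > C read, standard error 0.27, adjusted p = 1.63e-07). The highest DMSO share of 15.6% lay below the lowest C646 share of 39.8%.

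DNAJB4, a cytosolic class B protein close to DNAJB1 (Entrez 11080, chr1:78016037-78017964), had the lowest all-read level in DMSO among the genes called higher. New DNAJB4 transcripts stood at 2.21, 2.63 and 2.69 CPM in DMSO and 36.2, 41.2 and 35.7 CPM in C646 (log2 fold change 3.91, standard error 0.23, adjusted p = 3.30e-14). The groups did not overlap in all reads either, at 4.22, 5.82 and 4.44 CPM against 67.8, 74.9 and 67.5 CPM (log2 fold change 3.86, adjusted p = 4.09e-09). For DNAJB4, the T > C share was already 52.8% ± 7.69 (SD, n = 3) in DMSO, where it rests on 33 to 42 reads per library, and was 53.8% ± 1.07 (SD, n = 3) in C646.

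DNAJA1, an abundant class A cochaperone that works with HSC70 in folding and in transport into mitochondria (Entrez 3301, chr9:33038904-33039907), had the highest level of all reads among the class A and B genes in DMSO, at 216, 171 and 198 CPM. New DNAJA1 transcripts stood at 22.2, 20.0 and 17.8 CPM in DMSO and 159, 156 and 173 CPM in C646 (log2 fold change 3.02, standard error 0.16, adjusted p = 1.25e-15). All reads of DNAJA1 reached 706, 700 and 712 CPM in C646 (log2 fold change 1.86, adjusted p = 3.11e-07). Its T > C share rose from 10.3% ± 1.33 (SD, n = 3) to 23.0% ± 1.06 (SD, n = 3), with no overlap between the groups (adjusted p = 6.58e-08).

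DNAJB6, which holds back the aggregation of polyglutamine and other amyloid-forming proteins (Entrez 10049), had T > C levels of 12.5, 8.32 and 13.2 CPM in DMSO and 45.6, 50.5 and 59.9 CPM in C646 (log2 fold change 2.19, standard error 0.20, adjusted p = 2.65e-10). In all reads, it went from 108, 106 and 103 CPM to 207, 214 and 278 CPM, above every DMSO library (log2 fold change 1.14, adjusted p = 8.79e-05). Without C646 replicate 3, the log2 fold change in all reads was 0.99, just short of the cutoff. The T > C share of DNAJB6 rose from 10.7% ± 2.59 (SD, n = 3) to 22.4% ± 1.06 (SD, n = 3) (adjusted p = 2.44e-05). Of the DNAJB6 reads, 14.6% mapped to several places, and their part in these values was not tested.

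DNAJB6 is read at 2 annotated 3′ UTRs. The inner one (chr7:157385647-157386324) ends a coding transcript of 241 residues in GENCODE, the short form, and the outer one (chr7:157416099-157417439) ends coding transcripts that include the long form of 326 residues, which carries a nuclear localization signal. In DMSO, the inner 3′ UTR held 28.0%, 24.3% and 24.8% of the DNAJB6 reads, and in C646 29.5%, 29.9% and 30.1%. This difference of 4.16 percentage points had p = 0.1 in a two-sided exact permutation test, the smallest value that 3 libraries against 3 can give. Of the T > C reads of DNAJB6, the inner 3′ UTR held a mean of 57.5% in DMSO and 46.2% in C646, a difference in the other direction (p = 0.3 in the same exact permutation test). The T > C share of the inner 3′ UTR was 24.0% ± 7.03 in DMSO and 34.6% ± 1.86 in C646 (SD, n = 3 each), and that of the outer one 6.03% ± 2.00 (SD, n = 3) and 17.2% ± 2.28 (SD, n = 3). The inner 3′ UTR thus had the higher T > C share in both groups. It lies before the outer one within the gene, and T makes up 241 of its 678 bases, beside 402 of 1341 in the outer one. The part of the T bases, and which transcripts the reads of the inner one come from, were not tested. On the outer 3′ UTR alone, the log2 fold change in T > C reads was 2.56.

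DNAJA2, the remaining tested gene of the cytosolic class A and B group and a general cochaperone of HSC70, had T > C levels of 8.01, 6.93 and 5.25 CPM in DMSO and 2.91, 4.66 and 3.57 CPM in C646. Its groups did not overlap, but the log2 fold change of -0.86 (adjusted p = 0.0239) met neither cutoff and was close to the median of all genes. DNAJB2 and DNAJB5 had too few T > C reads to be tested, with 1 to 23 and 0 to 5 per library.

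The promoters of the members were searched for the heat shock element, the binding motif of HSF1, which repeats the unit GAA in alternating orientation. The search used RefSeq windows of GRCh38.p14 from 250 bases before to 50 bases after the start of each gene, which matched 40 of the 44 members. The 3-unit forms (GAA, TTC and GAA, or TTC, GAA and TTC, with NN between units) on either strand occurred in DNAJA1 and DNAJB6, which is 5% of the 40 windows, beside 0.366% of the 15843 windows of protein-coding genes. The shorter form (GAA and TTC in either order with NN between them), which every 3-unit match also contains, occurred in 4 of the 40 windows (10%), beside 11.4% of all windows. The lines below show the matches of the genes called higher, and that of DNAJC15, which was not called. Matched bases are in capitals, and each window is on the strand of its gene. The remaining window with the short form, that of DNAJB7, is not shown. It had its match 208 to 201 bases before the start, and DNAJB7 was not tested in T > C reads. The DNAJA1 matches lie at chr9:33025065-33025092 and at chr9:33025269-33025295 (plus strand), that of DNAJB6 at chr7:157336866-157336892 (plus strand) and that of DNAJC15 at chr13:43023387-43023414 (plus strand).
DNAJA1, short form, 198 to 191 bases before the start: aagggctccaGAAGATTCcacgagcgcc
DNAJA1, 3 units, bases 3 to 15 after the first transcribed base: ccgggcgGAACTTTCCAGAAcgctcgg
DNAJB6, 3 units, 131 to 119 bases before the start: gagccgaGAACCTTCGCGAAggtgggg
DNAJC15, short form, 189 to 182 bases before the start: gtgagtgtgaTTCAAGAAcgtcccagtg
The windows of DNAJB1, DNAJA4, DNAJB4 and DNAJC7 held no match to these letters. The ER stress element (CCAAT and CCACG with 9 bases between them, either strand) was in none of the 40 windows, beside 0.12% of all windows. A match describes the sequence only, and other spellings or more distant elements were not searched.

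DNAJC7, or TPR2, which binds HSP70 and HSP90 and can pass clients back from HSP90 to HSP70, was the single DNAJC gene called higher in T > C reads (Entrez 7266, chr17:41976421-41976770). Its T > C level was 3.58, 3.47 and 3.90 CPM in DMSO and 8.99, 9.68 and 11.6 CPM in C646 (log2 fold change 1.47, standard error 0.28, adjusted p = 8.13e-05). All reads stood at 71.8, 71.3 and 80.8 CPM in DMSO and at 132, 167 and 221 CPM in C646, with C646 replicate 3 the highest (log2 fold change 1.22, adjusted p = 0.000195). For DNAJC7, the T > C share in DMSO was among the lowest of the tested members, at 4.90% ± 0.0846 (SD, n = 3). It was 5.95% ± 0.791 (SD, n = 3) in C646, and the change did not pass the test.

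DNAJC7 has 13 annotated 3′ UTR entries, most of which are exons that GENCODE lists as coding in the protein-coding transcripts. The entry at the end of the gene held 45.7%, 47.3% and 57.3% of the DNAJC7 reads in DMSO and 77.9%, 82.5% and 87.4% in C646. The gain of 32.5 percentage points had p = 0.1 in the two-sided exact permutation test, again the smallest value possible. The second entry by reads, inside the gene (chr17:41987819-41987910), was in C646 below all its DMSO values, with 27.3%, 26.7% and 20.5% in DMSO and 9.01%, 6.01% and 5.20% in C646. On the end of the gene alone, the log2 fold change was 1.93 in T > C reads and 1.95 in all reads, larger than for the sum. The entries of DNAJB6 and DNAJC7 were examined after their values had been seen.

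**Figure D2:**
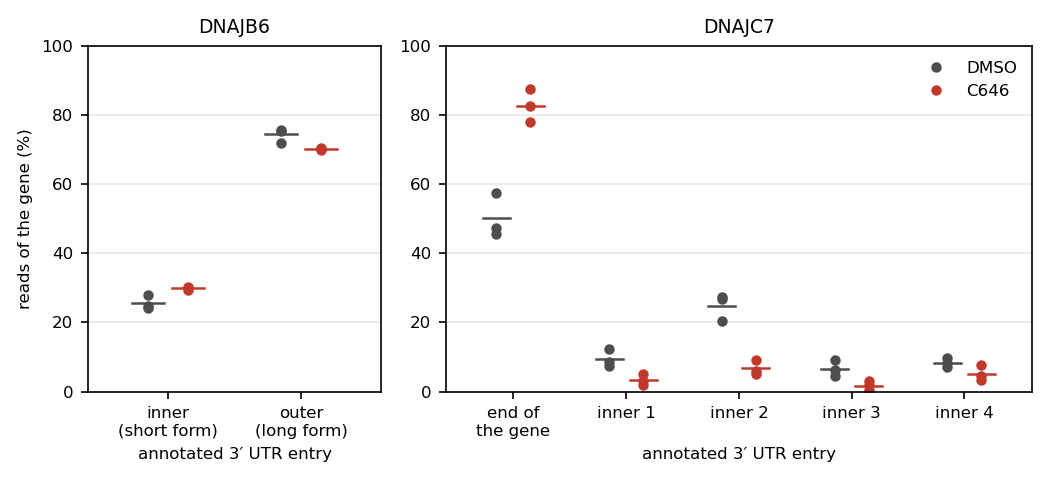
Reads on each annotated 3′ UTR entry as a percentage of all reads of DNAJB6 (left) and DNAJC7 (right), for each DMSO and C646 library (points) with the group mean (line); entries of DNAJC7 with 1% or less of its reads are not drawn. The end of the DNAJC7 gene held 50.1% of its reads on average in DMSO and 82.6% in C646, without overlap.

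The proteins of the ribosome, RNA processing and chromatin had 4 tested genes, of which 2 were called lower in T > C reads and 4 in T > C share, beside 33% and 38.3% of all tested genes. DNAJC2, or MPP11, which recruits HSP70 to nascent chains at the ribosome exit (Entrez 27000, chr7:103312474-103312568), had T > C levels of 11.1, 10.5 and 13.7 CPM in DMSO and 4.36, 4.17 and 2.58 CPM in C646 (log2 fold change -1.68, standard error 0.28, adjusted p = 1.43e-05). DNAJC9, a histone chaperone that brings HSP70 to histones H3 and H4 (Entrez 23234, chr10:73241956-73243399), had 20.2, 20.0 and 19.5 CPM in DMSO and 10.6, 4.53 and 7.54 CPM in C646 (log2 fold change -1.40, standard error 0.25, adjusted p = 2.29e-05). For both genes, every C646 library lay below every DMSO library. The difference of the log2 fold change from the median of all genes was -0.85 for DNAJC2 and -0.57 for DNAJC9.

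DNAJC11, a protein of the mitochondrial outer membrane with a part in cristae organization (Entrez 55735, chr1:6634168-6635674), was the third gene called lower. New DNAJC11 transcripts stood at 3.79, 4.99 and 5.12 CPM in DMSO and 1.19, 1.10 and 2.18 CPM in C646, without overlap (log2 fold change -1.60, standard error 0.43, adjusted p = 0.00247). The call rests on 9 to 38 T > C reads per library and was lost without DMSO replicate 2 (adjusted p = 0.0139), DMSO replicate 3 (adjusted p = 0.0160) or C646 replicate 2 (adjusted p = 0.0126). When the libraries were scaled by the T > C reads themselves, which moved the median of all genes from -0.83 to 0.01, none of the 3 genes was called lower, with log2 fold changes of -0.84 for DNAJC2, -0.77 for DNAJC11 and -0.56 for DNAJC9 (adjusted p = 0.0261, 0.177 and 0.0798 from edgeR). The 6 genes called higher were called under every scaling, tool and filter tried.

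In all reads, none of the 33 tested members was called lower, and 7 were called higher (21.2%, beside 5.89% of all 10851 tested genes higher and 1.88% lower). At an unadjusted p under 0.05 in the edgeR test, 6 of the 33 members were lower and 12 higher, beside 20.5% and 22.1% of all tested genes, and DESeq2 also called none lower and 7 higher. The 7 were the 6 genes higher in T > C reads and DNAJC1, and the median log2 fold change of the tested members was 0.20, beside -0.003 for all tested genes. DNAJC1, a membrane protein of the endoplasmic reticulum that recruits BiP (Entrez 64215, chr10:21756548-21756686), went from 15.4, 9.57 and 16.0 CPM to 27.6, 30.3 and 37.6 CPM in all reads (log2 fold change 1.22, standard error 0.22, adjusted p = 0.000998). Its T > C level overlapped between the groups, at 2.30 ± 0.646 CPM in DMSO and 1.83 ± 0.391 CPM in C646 (SD, n = 3 each). DNAJC3 and DNAJC21 passed the adjusted p in all reads but not the fold cutoff, with log2 fold changes of 0.81 and 0.75.

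**Figure D3:**
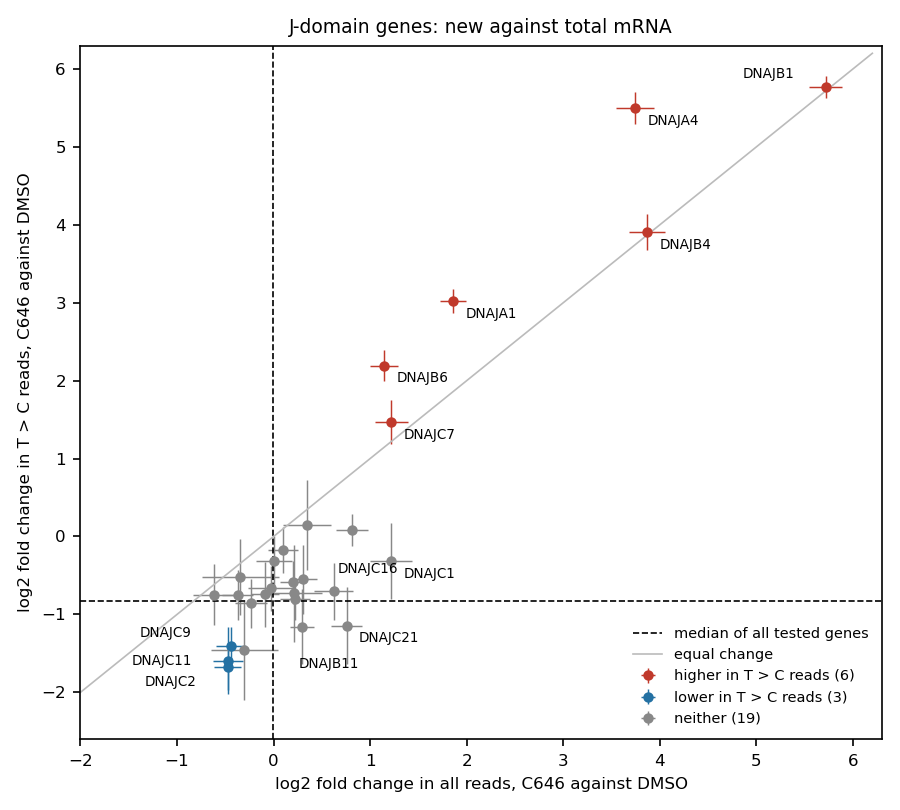
Log2 fold changes of the 28 tested J-domain genes in T > C reads (vertical axis) against all reads (horizontal axis), C646 against DMSO, with standard errors; dashed lines mark the medians of all tested genes and the grey line an equal change in both. DNAJB1 (5.72 in all reads, 5.77 in T > C reads) and DNAJB4 lie on the line of equal change, DNAJA4 (3.74, 5.50), DNAJA1 and DNAJB6 above it, and DNAJC1 (1.22, -0.32) below it.

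The T > C share compares the T > C reads of a gene with its other reads in the same library and needs no scaling between libraries. It was called higher for 3 of the 28 tested members (DNAJA4, DNAJA1 and DNAJB6; 10.7%, beside 0.79% of all tested genes) and lower for 7 (25%, beside 38.3%). The 7 were DNAJC21, DNAJC1, DNAJC16, DNAJB11, DNAJC2, DNAJC8 and DNAJC9, with log2 fold changes from -2.04 to -1.06, beside a median of -1.0 for all tested genes.

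DNAJC21, which takes part in the maturation of the large ribosomal subunit (Entrez 134218, chr5:34954715-34958964), had T > C shares of 11.7%, 7.37% and 13.1% in DMSO and 4.04%, 2.63% and 1.96% in C646, without overlap (log2 fold change -2.04, standard error 0.42, adjusted p = 0.000256). Its T > C level went from 2.98 ± 0.776 to 1.36 ± 0.543 CPM (SD, n = 3 each), which was not called (adjusted p = 0.0491), while its all-read level went from 28.0 ± 2.54 to 47.2 ± 4.67 CPM (SD, n = 3 each). DNAJC8, a splicing-associated protein (Entrez 22826, chr1:28200279-28201247), had T > C shares of 7.18%, 6.93% and 7.03% in DMSO and 2.02%, 4.36% and 3.86% in C646 (log2 fold change -1.10, adjusted p = 0.000336). DNAJC2 went from 14.7%, 12.8% and 18.2% to 9.02%, 6.95% and 4.38% (log2 fold change -1.35, adjusted p = 0.000755). The shares of DNAJC9 were 12.3%, 12.9% and 12.2% in DMSO and 7.33%, 3.94% and 8.03% in C646 (log2 fold change -1.06, adjusted p = 0.000776). In these 4 genes the C646 libraries lay below all DMSO libraries. The call was lost for DNAJC2 without DMSO replicate 3 (adjusted p = 0.0108), for DNAJC8 without C646 replicate 1 (log2 fold change -0.83) and for DNAJC9 without C646 replicate 2 (log2 fold change -0.77).

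**Figure D4:**
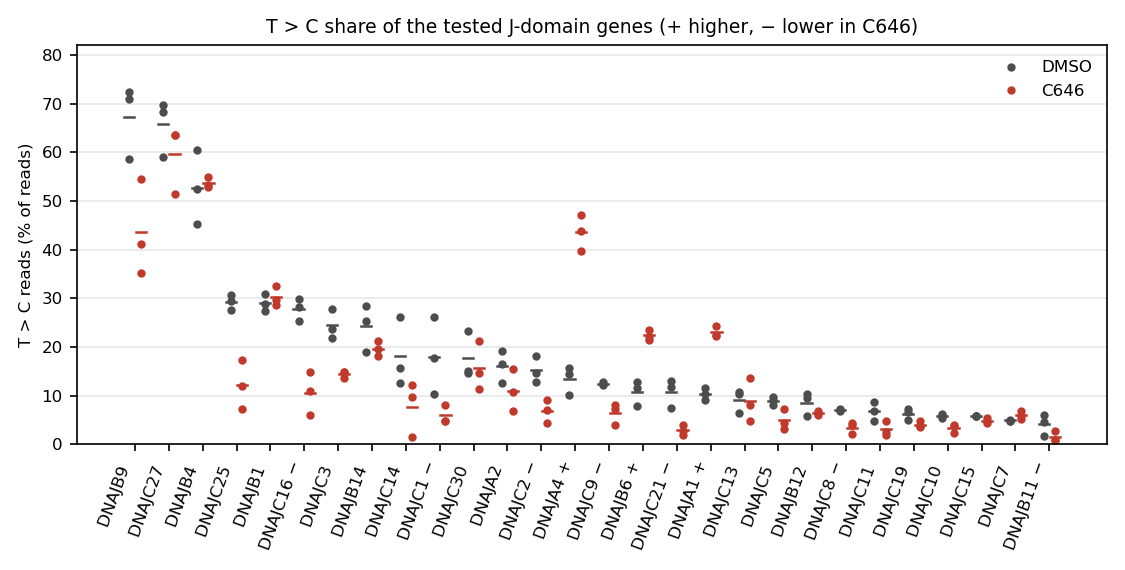
T > C reads as a percentage of the reads of each of the 28 tested J-domain genes, for each DMSO and C646 library (points) with the group mean (line), ordered by the DMSO mean; + and − mark genes called higher or lower in C646. DNAJA4, DNAJB6 and DNAJA1 stand out above their DMSO values (43.6%, 22.4% and 23.0% in C646), and DNAJB9 has the highest DMSO mean (67.4%).

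Of the members, 8 were listed here under the endoplasmic reticulum, all tested, and none of them was called in T > C reads, where their log2 fold changes ran from -1.16 to 0.08 with a median of -0.61. The list gives each protein 1 place from general knowledge and is not complete: DNAJC14 and DNAJC18, also membrane proteins of the endoplasmic reticulum, were listed under other members, with DNAJC14 not called and DNAJC18 not tested in T > C reads. At an unadjusted p under 0.05 in the edgeR test, 3 of the 8 were lower and none higher, beside 54.8% and 6.02% of all tested genes, and DESeq2 called none. DNAJC3, or p58IPK, a BiP cochaperone that also restrains the eIF2α kinase PERK, had the value of 0.08 (adjusted p = 0.753), with T > C levels of 13.6, 12.2 and 16.3 CPM in DMSO and 14.4, 15.1 and 15.1 CPM in C646. DNAJB9, or ERdj4, a target of the unfolded protein response that holds IRE1 inactive, had -0.67 (adjusted p = 0.0512). DNAJB11, or ERdj3, a soluble BiP cochaperone, had -1.16 (adjusted p = 0.0419). Of these 8 genes, DNAJB11 was called lower without C646 replicate 2 (-1.81, adjusted p = 0.00874) and DNAJC16 without C646 replicate 3 (-1.23, adjusted p = 0.00831). DNAJB12 and DNAJB14, which act with HSC70 in degradation of membrane proteins, had -0.75 and -0.31, and DNAJC10, a disulfide reductase of the lumen, had -0.55.

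The T > C share was called lower for 3 of these 8 (37.5%, near the 38.3% of all tested genes), DNAJC1, DNAJC16 and DNAJB11. DNAJC16, a membrane protein of the endoplasmic reticulum (Entrez 23341, chr1:15568178-15571733) went from 28.1%, 25.4% and 29.8% to 10.9%, 6.02% and 14.8%, with well separated groups (log2 fold change -1.70, standard error 0.38, adjusted p = 0.000693), and kept the call with any single library left out. DNAJB11 (Entrez 51726, chr3:186585409-186585800) had 4.63%, 6.10% and 1.69% in DMSO and 0.965%, 2.64% and 0.935% in C646, which overlap (log2 fold change -1.50, adjusted p = 0.00383). Its call was lost without DMSO replicate 1 or 2 or C646 replicate 1 or 3 (adjusted p from 0.0143 to 0.0650). DNAJC1 had 10.3%, 26.1% and 17.6% in DMSO and 8.13%, 4.86% and 4.75% in C646 (log2 fold change -1.73, adjusted p = 0.00333), and its call was lost without DMSO replicate 2 or 3 or C646 replicate 2 or 3 (adjusted p from 0.0131 to 0.0368).

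Of the 7 mitochondrial members, 4 were tested in T > C reads, and apart from DNAJC11 none was called. The share called lower was thus 25%, beside 33% of all tested genes. DNAJC19, a subunit of the import motor, had a log2 fold change of -0.74, DNAJC30, which is needed for the turnover of a complex I subunit, -0.75, and DNAJC15, a regulator of the import motor, -0.17. Of the 5 members of vesicles and endosomes, DNAJC5, the cysteine string protein of secretory vesicles, had -0.59 and DNAJC13, an endosomal protein, 0.15. Without C646 replicate 3, in which DNAJC5 stood at 14.3 CPM beside 5.16 and 7.23 CPM in the other C646 libraries, DNAJC5 was called lower (log2 fold change -1.13, adjusted p = 0.000713). Among the other members, DNAJC14, DNAJC25 and DNAJC27 were tested and not called, with log2 fold changes from -1.46 to -0.52.

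**Figure D5:**
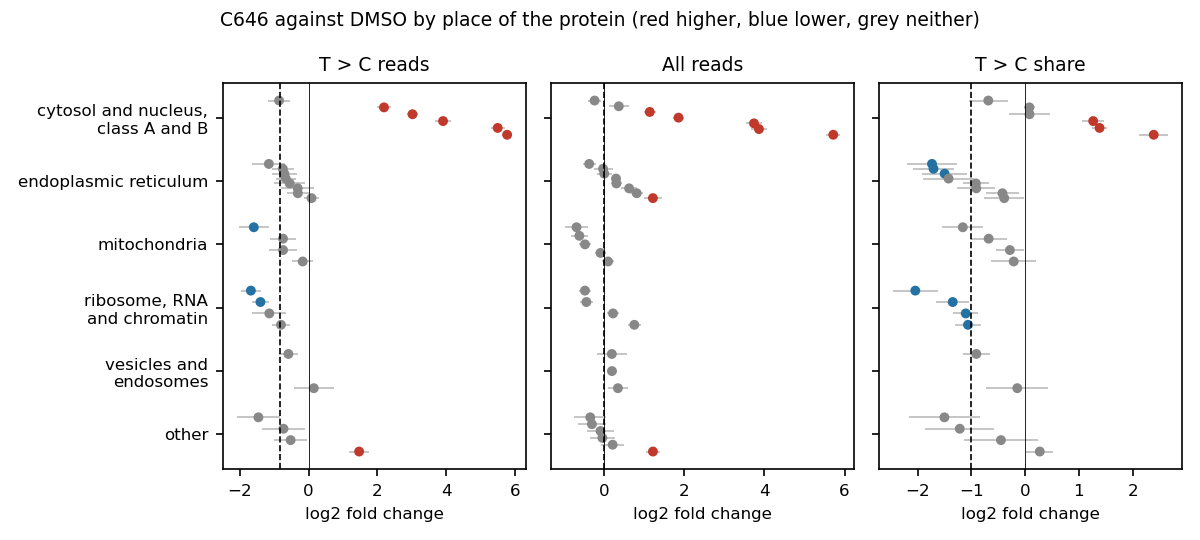
Log2 fold changes (points) with standard errors, C646 against DMSO, of the tested J-domain genes by place of the protein, in T > C reads, all reads and the T > C share; red marks genes called higher, blue lower and grey neither, and the dashed line is the median of all tested genes. In T > C reads, 5 of the 6 cytosolic class A and B genes are higher, and none of the 8 genes listed under the endoplasmic reticulum is called.

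In T > C reads, 16 members were not tested. No read at all fell on DNAJB8, DNAJC5G, DNAJC22 and DNAJC28. DNAJA3, DNAJB7, DNAJB13, DNAJC6, DNAJC12 and DNAJC17 had at most 2 T > C reads and 10 reads in all in any library. The reads of DNAJA3 are split between chromosome 16 and an alternative contig that holds the same gene, which makes its count uncertain. DNAJB5 had at most 5 T > C reads in any library. The other 5, DNAJB2, DNAJC4, DNAJC5B, DNAJC18 and DNAJC24, were tested in all reads, where their log2 fold changes of 0.37, -0.69, 0.19, -0.04 and -0.09 did not pass the test.

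In DMSO, the T > C share is a measure of how much of an mRNA was made during the last 1 h. Among the 26 members with at least 50 reads in each DMSO library, it was highest for DNAJB9, at 67.4% ± 7.54 (SD, n = 3), above 99.2% of the 8106 genes with as many reads. DNAJB1 (29.0% ± 1.70), DNAJC16 (27.8% ± 2.24), DNAJC3 (24.4% ± 3.05) and DNAJB14 (24.2% ± 4.80) followed (SD, n = 3 each). DNAJB1 and DNAJC16, and likewise DNAJC3 and DNAJB14, differed by less than their spread. At the other end were DNAJC7 (4.90% ± 0.0846), DNAJB11 (4.14% ± 2.25) and DNAJC4 (0.654% ± 1.13; SD, n = 3 each). The median of the 26 was 10.5%, beside 11.3% for all these genes. The share of T bases in the 3′ UTR was 39.1% in DNAJB9 and 14.3% in DNAJC4, but 28.1% in DNAJB1 and 36.5% in DNAJB11, and its part was not tested. Per T base read, 5.58% ± 0.744 (SD, n = 3) were converted in DNAJB9 in DMSO and 0.0466% ± 0.0806 (SD, n = 3) in DNAJC4.

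Among the HSP70 partners of the J-domain proteins, HSPA6 and HSPA1B, both stress-inducible HSP70 genes, had at most 2 T > C reads in any DMSO library and were at least 1879-fold and 62.1-fold higher in C646 T > C reads, against a floor of 3 T > C reads per library. HSPA1A, the closely related neighbour of HSPA1B, had no T > C read in DMSO and 21, 23 and 37 in C646, and was at least 8.16-fold higher. Of its 24 to 38 reads per C646 library, 84.0% to 97.4% were T > C reads, beside 45.9% to 53.5% for HSPA1B. These T > C reads carried 4.53 ± 2.04 conversions each, beside 2.35 ± 0.197 for HSPA1B (SD, n = 3 each). The placement of the HSPA1A reads was not tested. HSPA8, the constitutive HSC70, and HSPA9, the mitochondrial HSP70, had log2 fold changes of 1.23 and 1.00, with 78.9% of the HSPA8 reads mapped to several places. HSPA5, or BiP, the partner of the members in the endoplasmic reticulum, had a log2 fold change of 0.14 (adjusted p = 0.450). HSPA14, a ribosome-associated HSP70, and HSPA13 were not called either, at -0.97 and 0.55 (adjusted p = 0.00421 and 0.147), and the T > C share of HSPA14 was called lower (adjusted p = 0.000870).

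Of 11 tested nucleotide exchange factors, which release ADP from HSP70 and so reopen it after the J-domain protein has acted, 4 were higher and 4 lower in T > C reads (36.4% each, beside 2.97% and 33% of all tested genes). BAG3, HSPH1, HSPA4L and HSPA4 had log2 fold changes of 5.80, 4.12, 4.10 and 1.98, and BAG1, GRPEL1, BAG5 and BAG4 had -2.48, -1.59, -1.58 and -1.08. Their differences from the median of all genes were -1.65, -0.76, -0.75 and -0.25, of which that of BAG1 alone exceeds the fold cutoff. GRPEL1 is an exchange factor of mitochondria, as is GRPEL2, which was not called (-0.54), and HSPH1, HSPA4L and HSPA4 are the HSP110 proteins of the cytosol. Among 5 further cochaperones of HSP70, ST13 (1.98) and STIP1 (1.79), which hold HSP70 with its client and link it to HSP90, were higher, and STUB1 (-2.32), the ubiquitin ligase CHIP, was lower. Among genes for J-domain proteins with other symbols, GAK, which uncoats clathrin vesicles, was lower (log2 fold change of -2.69), and SEC63, of the translocon of the endoplasmic reticulum, had -0.84 and was not called.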

How the data were processed

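RNA from 3 DMSO and 3 C646 samples of MOLM-13 cells was made into 3′ end libraries (QuantSeq FWD) after alkylation. The authors used SLAM-Dunk (version 0.4.1 in the file headers) with GRCh38 and deposited raw counts of reads and of T > C reads for 58136 3′ UTR entries with Entrez identifiers, beside T coverage (signal) and read rates (CPM). The deposited T > C counts include reads with a single conversion, whereas the study's methods tested reads with at least 2. The deposited CPM was not used. Counts were summed per gene (25420 genes, 99.6% with a symbol) and tested with edgeR 4.0.16 (quasi-likelihood, R 4.3.3) over all genes kept by filterByExpr, with Benjamini-Hochberg adjustment. T > C reads were scaled by the TMM-scaled totals of all reads, and the T > C share was tested as the interaction of T > C and other reads of each library with treatment. TMM was first computed over all listed genes, with the T > C filter on T > C totals. The setting reported was chosen after both had been seen, and the counts of members called were equal. The tests recovered 94.5% (T > C reads), 99% (all reads) and 75.5% (T > C share) of 200 genes simulated with a log2 change of 1.5, among 7676, 10838 and 7686 genes. Recovery was scored by the adjusted p and the direction, without the fold cutoff. The changed genes all had a minimum mean count, and as many rose as fell. These rates therefore do not cover members with few T > C reads or a general fall of T > C reads. Folds against DMSO libraries with at most 3 T > C reads are lower bounds at that floor in each library. PCR reads are not independent molecules, so counting precision does not cover amplification. Entries were compared with GENCODE and promoters with RefSeq GRCh38.p14. The members and lists were chosen with earlier results of these data known, and the place of each protein was assigned from general knowledge. Members called in any of the 3 tests are given by library, other tested members by their log2 fold changes and untested members by their reads. Alternatives in scaling, tool, filter, 3′ UTR entries and libraries were computed. No protein sequences were used. The result of 1 gene among the J-domain proteins with other symbols is not reported here.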

Additional observations from a re-analysis of the deposited data

How the results depend on the processing

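Of the J-domain genes, 6 were higher in T > C reads under every setting tried, none was lower in all reads, and 3 had a higher T > C share. The 3 lower in T > C reads became 0 when scaling used the T > C reads, whether by TMM, by DESeq2 size factors in edgeR or in DESeq2, which by construction centres the T > C changes. Among all tested genes, TMM on T > C reads gave 602 lower and 706 higher, beside 2548 and 229. With 1 library left out, 2 to 5 members were lower in T > C reads, the 5 without C646 replicate 3, where DNAJC5 and DNAJC16 were added. Without C646 replicate 2, DNAJB11 and DNAJC8 were added and DNAJC11 was lost. The same omissions gave 6 to 7 members higher in all reads and 5 to 8 with a lower T > C share. Among genes with a mean of at least 50 T > C reads per library, 4 members had a lower T > C share: DNAJC2, DNAJC8 and DNAJC9 of the 7, and DNAJB9. The other 4 of the 7 were not tested there. Deviations of same-numbered libraries correlated at 0.0299 to 0.0655 in T > C reads and at -0.001, 0.136 and 0.231 in all reads, so that not every pair exceeded 0.1 and the numbers were not used as pairs. A replicate block gave 3 lower and 6 higher members in T > C reads, 0 and 7 in all reads, and 8 and 3 in T > C share. Scaling by all filtered reads, an alternative chosen after seeing the data, gave 2 lower in T > C reads and 8 higher in all reads. On single 3′ UTR entries, DNAJC7 had a log2 fold change of 1.95 in all reads, against 1.22 for the sum. Low counts limit DNAJC11, DNAJC25 and the 16 members not tested.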
